A study of Mus musculus with 22 samples.

Results

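The Slc25 genes encode the mitochondrial carriers, and they were followed here in mouse liver of 2 genotypes with and without glucagon infusion. Members were the rows of the deposited table whose symbol is Slc25a followed by a number, leaving out Slc25a13, Slc25a15 and Slc25a20. That gave 44 of the 47 Slc25 rows, among 24475 genes in all. Liver mRNA was sequenced from WT mice and from Gcg KO mice, which lack the gene for glucagon, the pancreatic hormone that raises hepatic glucose output. In each genotype 3 libraries had no infusion, 4 had glucagon infusion at 30 µg/d and 4 at 150 µg/d, and libraries are named by the running number in their labels, from 1 to 22. Libraries 1 to 3 were uninfused WT and 4 to 6 uninfused Gcg KO; 7 to 10 were WT and 11 to 14 Gcg KO at 30 µg/d; 15 to 18 were WT and 19 to 22 Gcg KO at 150 µg/d. Strain, age, sex, the knockout allele and the length of infusion are not stated in the labels, and neither is whether the uninfused mice received a vehicle. Nor do the labels tie each library to its own mouse, and p-values therefore rest on the spread from library to library, which may be technical.

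The unit is RPKM, which scales reads to transcript length and library size and allows levels to be compared between genes per length. From the steps between low values, libraries held about 11.2 to 17.9 M reads, so that 1 read on a 1 kb transcript was worth 0.0559 to 0.0894 RPKM. Summed RPKM of 8 hepatocyte markers ran from 34830 to 77430 per library. Gcg was at 0 in all 22 libraries, which leaves the genotype labels unchecked. Libraries 4 (uninfused Gcg KO) and 13 (Gcg KO, 30 µg/d) stood apart with Cyp2b9, a sex-biased cytochrome, at 111.2 and 42.92 RPKM, where the other 20 had at most 1.608. Library 21 (Gcg KO, 150 µg/d) carried skeletal muscle transcripts. These 3 libraries are named again where they decide a value.

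Mitochondrial carriers are small proteins of the inner membrane that exchange nucleotides, phosphate, amino acids, carboxylates and cofactors between the matrix and the cytosol. In hepatocytes they connect the matrix and cytosolic steps of gluconeogenesis, urea synthesis, lipogenesis and oxidative phosphorylation. Glucagon acts on hepatocytes through its receptor Gcgr, which raises cyclic AMP.

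Of the 44 members, 36 had a mean of at least 0.5 RPKM over the 22 libraries and were tested, and 8 did not. By mean, 4 members stood at 100 RPKM or more, 17 at 10 or more (the 4 included), 15 between 1 and 10 and 4 between 0.5 and 1. The 6 highest by mean were Slc25a47 (281.2 RPKM), a carrier enriched in liver whose substrate is not settled, Slc25a5 (258.3), an ADP/ATP translocase, Slc25a39 (178.0), which takes glutathione into the matrix, Slc25a3 (138.2), the phosphate carrier, Slc25a1 (97.6), the citrate carrier, and Slc25a23 (93.5), a calcium-regulated ATP-Mg/phosphate carrier. Together they held 70.2% of the summed RPKM of the 44. For WT without infusion that sum was 1499 ± 49.3 RPKM (SD, n = 3), for Gcg KO without infusion it was 1530 ± 145 (n = 3), and the means of the 4 infused groups lay between 1365 and 1559. Within uninfused Gcg KO the 6 highest held 75.0 to 78.6% of the sum, against 66.3 to 68.2% in uninfused WT, and Slc25a47 was the member with the largest gap in RPKM.

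**Figure D1:**
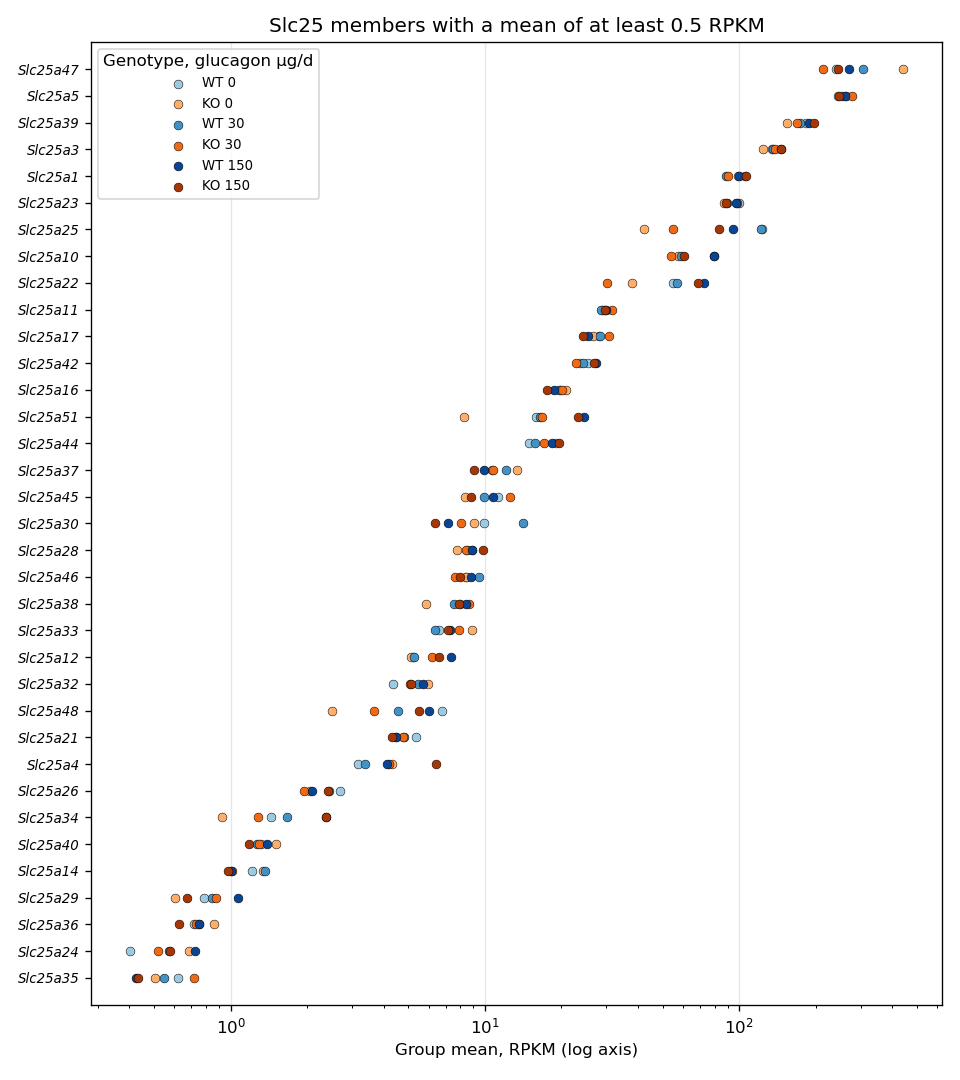
Group means in RPKM (log axis) of 35 tested members, ordered by their mean over 22 libraries; each point is the mean of the 3 or 4 libraries of one genotype and glucagon dose in µg/d. Most members have their 6 points close together, and the uninfused Gcg KO point stands apart to the right for Slc25a47 (441.7 RPKM) and to the left for Slc25a51 (8.31) and Slc25a48 (2.50).

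Loss of glucagon was examined first in mice without infusion, and Slc25a48 was the member that changed. Slc25a48 encodes a carrier for choline (chromosome 13, 56437960 to 56472367, GRCm38). Its level was 6.03, 7.99 and 6.28 RPKM in the 3 uninfused WT libraries and 2.62, 2.70 and 2.17 in the 3 uninfused Gcg KO libraries, so the groups did not overlap. The fold change was −1.15 ± 0.14 (SE) on the log2(RPKM + 1) scale, which understates changes of low genes, with an adjusted p of 0.000847 in limma. Only 1 of the 11590 genes tested had a smaller p in that comparison. It passed in each of the 16 alternatives run for it, and without libraries 4 and 13 its adjusted p was 0.0101. In bulk tissue fewer cells of a type and less RNA per cell cannot be told apart. Of 12 endothelial markers 5 were called higher in the same Gcg KO libraries, and the others were higher without a call. Their sum was 153.5 to 163.3 RPKM against 116.6 to 129.4 in WT. The 8 hepatocyte markers summed to 50990 to 77430 against 46170 to 50730 RPKM with none called. Alb was the largest part of that sum, at a mean of 39220 against 25960 RPKM. Tat (211.1 against 559.4) and Cps1 (543.5 against 873.2) were lower, and the other hepatocyte markers were higher. The sums of 4 more marker lists were also higher in those Gcg KO libraries without overlap and with none of their tested genes called. They were 316.8 to 326.4 RPKM against 202.7 to 274.9 for Kupffer cells, 130.8 to 133.9 against 95.08 to 105.9 for stellate cells and fibroblasts, 60.32 to 177.2 against 16.4 to 32.8 for cholangiocytes, and 14.91 to 27.72 against 10.02 to 11.8 for adipose tissue. Of the 6 cholangiocyte markers 3 were tested, and of the 6 adipose markers also 3. The cholangiocyte sum was mostly Spp1, at a mean of 117.6 against 19.76 RPKM. Krt19, Epcam and Cftr were higher too and Krt7 and Sox9 lower, all at means under 1 RPKM. The adipose sum was mostly Fabp4, at a mean of 14.86 against 10.05 RPKM. Cfd (3.61 against 0.517) and Cidec (1.79 against 0.585) were higher too, with Cfd widely spread (SD 5.78 in Gcg KO). Adipoq and Plin1 had means of 0.0959 and 0.0762 RPKM in uninfused Gcg KO, and Lep was at 0. Only the sum of 7 skeletal muscle markers was lower without overlap, at 0.4492 to 0.7633 RPKM against 0.9677 to 1.089. The part of these cell types in the result was not tested.

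Among 36 tested members Slc25a48 was the single call between genotypes without infusion, and it was lower. Over all genes, 1.54% were called, 0.794% higher and 0.751% lower in Gcg KO. With n = 3 against 3, the libraries of 14 of the 36 members did not overlap (5 with Gcg KO higher and 9 lower), where 24.8% of all genes did the same. At an unadjusted p under 0.05 there were 10 members, or 27.8%, against 17.5% of all genes. The median log2 fold change of members was −0.108 and that of all genes 0.011. For 29 members the 95% interval of the log2 fold change lay within ±1. Leaving out library 6 gave 2 calls, with Slc25a47 added (adjusted p = 0.0431).

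High-dose infusion in Gcg KO mice was compared with the same 3 uninfused Gcg KO libraries, so both comparisons share them. Slc25a48 and Slc25a51 rose and Slc25a47 fell. Slc25a48 stood at 4.63, 5.41, 5.91 and 6.03 RPKM at 150 µg/d, each above the 3 uninfused Gcg KO libraries where the WT libraries at that dose had 4.64 to 7.69. The fold change was 0.89 ± 0.14 (limma adjusted p = 0.00224), which passed in 16 of 17 alternatives and not when the 2 groups were fitted alone (0.0890). Its adjusted p was 0.00813 without libraries 4 and 13 and 0.0102 without library 21. At 30 µg/d the Gcg KO libraries had 3.26, 4.05, 4.48 and 2.90 RPKM, all above the uninfused ones and all below those at 150 µg/d. Neither step passed the test, at 0.41 ± 0.14 from none to 30 µg/d (adjusted p = 0.303) and 0.48 ± 0.13 from 30 to 150 µg/d (0.0861).

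Cell type markers also differed between these high-dose and uninfused Gcg KO libraries. Of the 12 endothelial markers Cdh5, Pecam1 and Tek were called lower at 150 µg/d, and the list summed to 122.4 to 142.9 RPKM against 153.5 to 163.3. The 8 hepatocyte markers summed to 34830 to 49760 RPKM against 50990 to 77430, with Tat, tyrosine aminotransferase, called higher. Alb was the largest part of that sum (mean 22280 against 39220 RPKM), and Cps1 and Serpina1a were higher without a call. The 6 lymphocyte markers summed to 0.9953 to 2.522 against 2.747 to 4.538, and the 1 tested was not called. All 3 sums were lower without overlap, those of the other 8 lists overlapped, and their part in the changes of Slc25a48, Slc25a51 and Slc25a47 was not tested.

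In WT mice Slc25a48 had 4.51, 4.62, 4.13 and 4.88 RPKM at 30 µg/d, all below the 3 uninfused WT libraries, and 5.84, 7.69, 4.64 and 5.92 at 150 µg/d, which overlapped them. The fold changes against uninfused WT were −0.48 ± 0.14 (limma adjusted p = 0.836) and −0.15 ± 0.14 (0.689). The response to 150 µg/d was larger in Gcg KO than in WT by 1.05 ± 0.19, an interaction whose adjusted p was 0.108, so the difference between the genotypes' responses did not pass. Ordered by group mean, Slc25a48 ran from 2.50 RPKM in uninfused Gcg KO through 3.67 in Gcg KO and 4.54 in WT at 30 µg/d to 5.495 in Gcg KO and 6.02 in WT at 150 µg/d and 6.77 in uninfused WT. In that order the libraries of each pair of neighbours overlap, except between the first and second groups.

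Slc25a51, which carries NAD+ into mitochondria (chromosome 4, 45395923 to 45408917), was lowest in uninfused Gcg KO liver. It had 7.55, 7.10 and 10.3 RPKM there, against 12.1, 18.3 and 17.2 in uninfused WT. At 30 µg/d the Gcg KO libraries had 14.8, 22.1, 16.6 and 13.7 RPKM, and at 150 µg/d they had 14.9, 27.6, 28.9 and 21.8. All 8 infused Gcg KO libraries thus lay above the 3 uninfused ones. The rise at 150 µg/d was 1.36 ± 0.29 (limma adjusted p = 0.0174), while the changes at 30 µg/d (0.93 ± 0.29, adjusted p = 0.268) and between uninfused genotypes (−0.85 ± 0.31, 0.148) did not pass. In WT the 4 libraries at 150 µg/d were spread widely, at 34.5, 25.8, 10.9 and 27.4 RPKM, with a change of 0.52 ± 0.29 (adjusted p = 0.486). The call at 150 µg/d passed in 11 of 17 alternatives. It was lost when the 2 groups were fitted alone (adjusted p = 0.118), without libraries 4 and 13 (0.0742), and without library 4 (0.0792), 5 (0.0653), 21 (0.0602) or 22 (0.0522), with a log2 fold change of 1.24 or more in each.

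Slc25a47 (chromosome 12, 108849833 to 108856815) was highest in uninfused Gcg KO liver. Its 3 libraries there had 543.0, 424.5 and 357.7 RPKM, above all 19 others. Uninfused WT had 251.3, 279.5 and 186.7 RPKM, and the difference between the genotypes was 0.88 ± 0.23 (limma adjusted p = 0.0610). Gcg KO libraries at 30 µg/d had 293.3, 230.6, 172.0 and 154.2 RPKM, and those at 150 µg/d 327.1, 251.5, 190.8 and 211.7. The fall at 150 µg/d was −0.86 ± 0.22 (adjusted p = 0.0413), and the difference at 30 µg/d was −1.08 ± 0.22 (0.0719). The call held in 8 of 17 alternatives; the 9 without it were no filter on low values (0.0714), median-of-ratios scaling (0.0583), the 2 groups fitted alone (0.176), and leaving out libraries 4 and 13 together (0.178) or library 4 (0.195), 5 (0.0936), 20 (0.0711), 21 (0.122) or 22 (0.125). At 30 µg/d the difference passed without library 6 (0.0391) or 11 (0.0267), and without libraries 4 and 13 the adjusted p was 0.475. Library 4 had the highest value of all. In WT, Slc25a47 had 265.9 to 353.1 RPKM at 30 µg/d and 219.9 to 323.9 at 150 µg/d, and neither dose passed against uninfused WT (0.37 ± 0.22, adjusted p = 0.839, and 0.19 ± 0.22, 0.786).

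**Figure D2:**
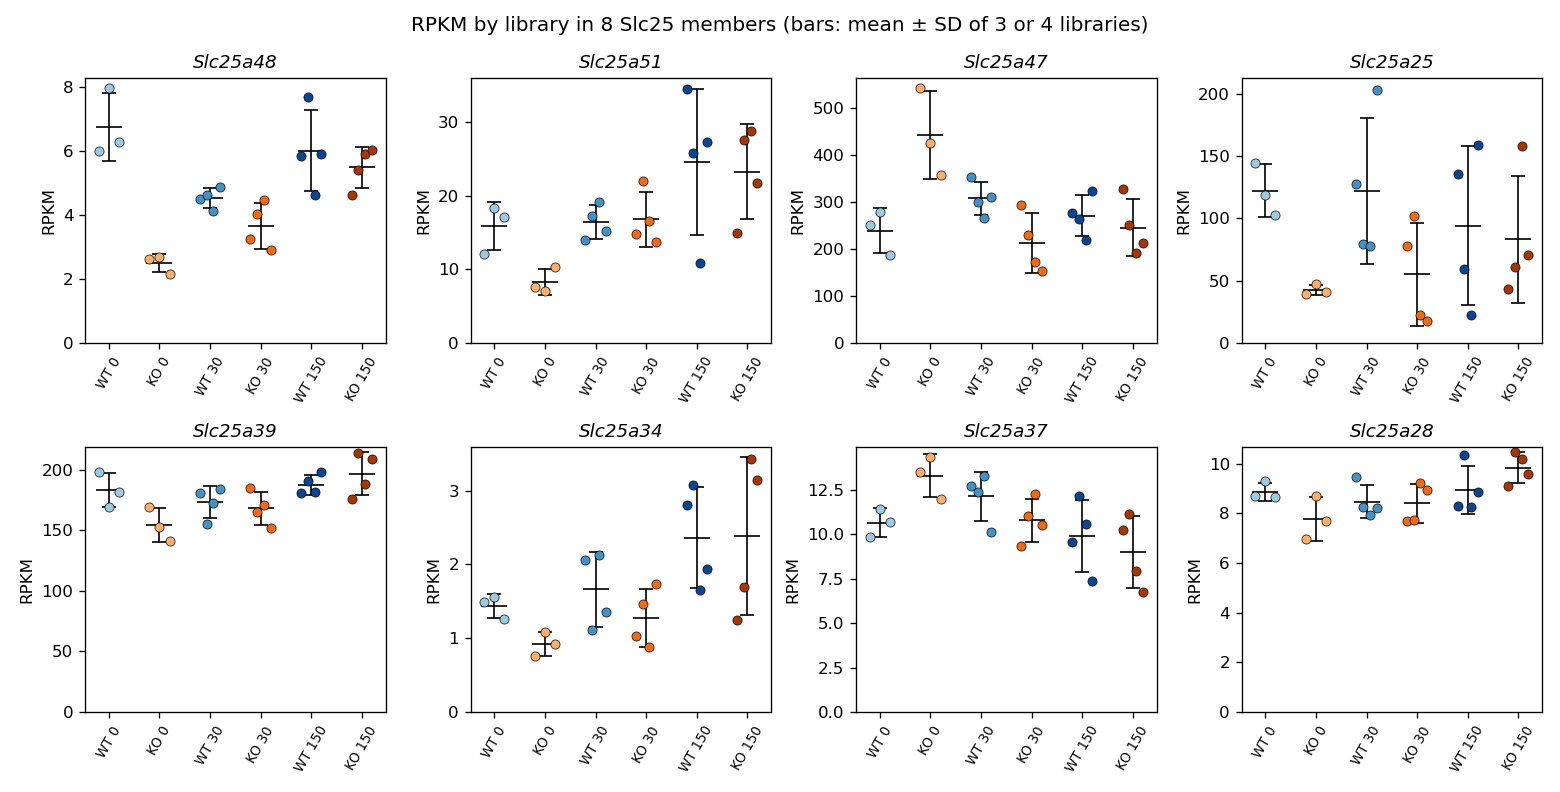
RPKM by library (points) in the 6 groups of genotype and glucagon dose (µg/d) for 8 members, with the group mean and SD as bars (n = 3 without infusion, n = 4 with it); each panel has its own axis from 0. Uninfused Gcg KO libraries lie between 2.17 and 2.70 RPKM for Slc25a48, all below the other 19, and between 357.7 and 543.0 for Slc25a47, all above the other 19.

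Over the 36 tested members, 3 were called at 150 µg/d in Gcg KO (8.33%), where 2.72% of all genes were, 1.31% higher and 1.41% lower. The libraries of 10 members did not overlap, against 13.5% of all genes. At an unadjusted p under 0.05 there were 12 members, or 33.3%, against 18.4% of genes, and the medians of the log2 fold changes were 0.058 for members and −0.040 for all genes. Leaving out library 4, 5, 21 or 22 left 1 member called, Slc25a48 in each case, and leaving out library 19 gave 8, among them Slc25a22, Slc25a28, Slc25a34, Slc25a37 and Slc25a39 beside the 3. Another scaling also moved the count, to 5 with median-of-ratios scaling and 6 with quantile normalization. The share of higher genes among all calls was 48.3% as deposited, and 67.0% and 60.3% after these scalings.

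**Figure D3:**
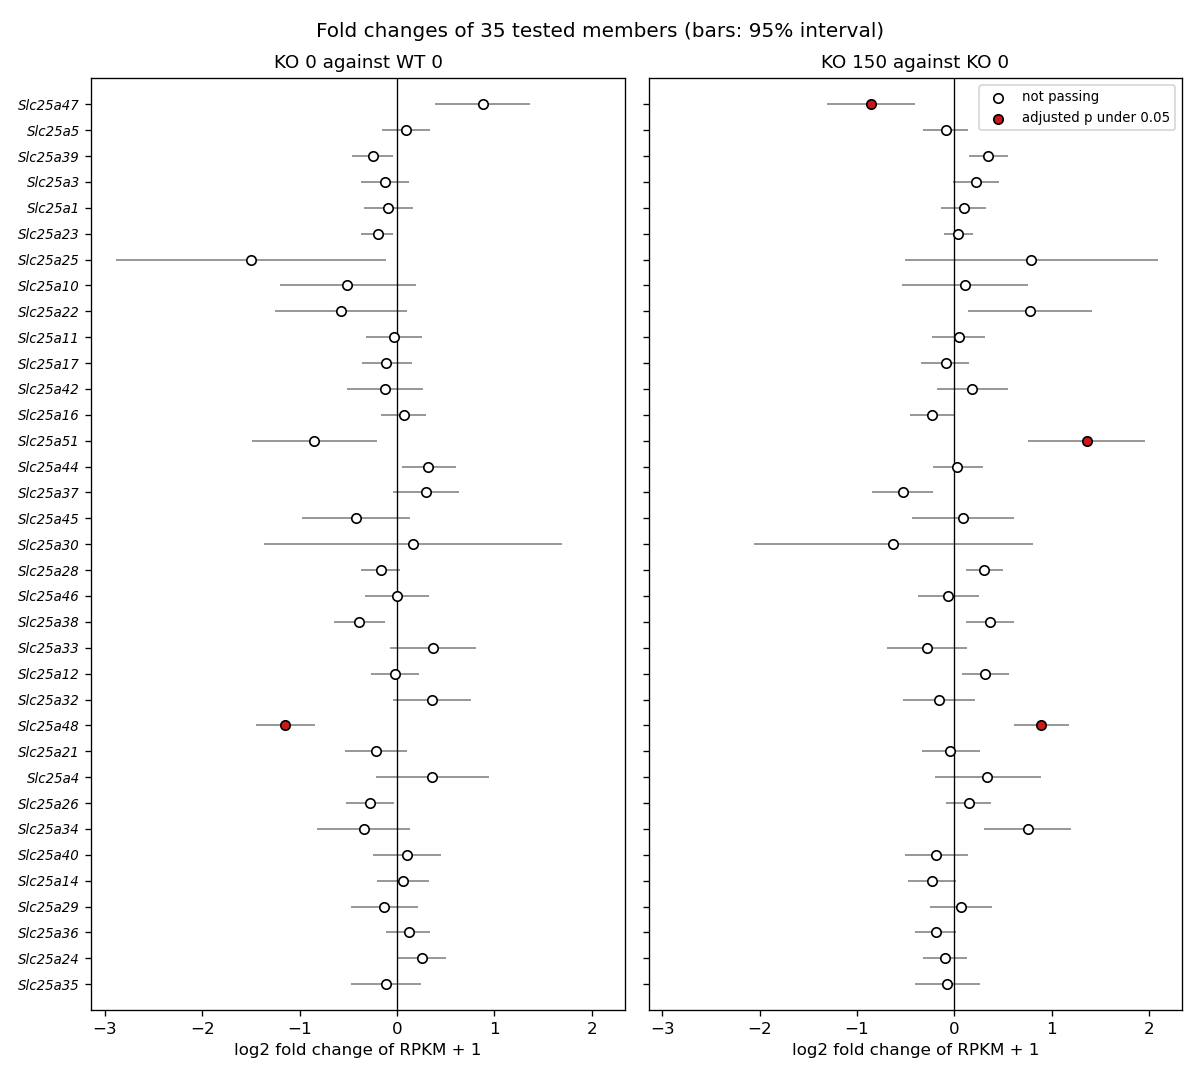
Log2 fold changes of RPKM + 1 for 35 tested members, in uninfused Gcg KO against uninfused WT (left) and in Gcg KO at 150 µg/d against uninfused Gcg KO (right), with 95% intervals as bars; filled points passed limma at an adjusted p under 0.05. The 2 panels share the uninfused Gcg KO libraries. Slc25a48 is filled on the left at −1.15, and Slc25a48 (0.89), Slc25a51 (1.36) and Slc25a47 (−0.86) are filled on the right, while Slc25a25 and Slc25a30 have the widest bars.

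Slc25a25 (chromosome 2, 32414487 to 32451470), a calcium-regulated ATP-Mg/phosphate carrier, had the lowest fold change of the family between uninfused genotypes and did not pass. Its values were 144.8, 119.1 and 103.1 RPKM in uninfused WT and 39.0, 46.98 and 41.0 in uninfused Gcg KO. These groups did not overlap, and the fold change was −1.50 ± 0.67 (limma adjusted p = 0.251). The infused groups, which share the estimate of spread, were wide. WT had 127.9, 79.2, 78.1 and 202.9 RPKM at 30 µg/d and 136.0, 59.5, 22.3 and 159.2 at 150 µg/d. Gcg KO had 78.1, 102.1, 22.4 and 17.99 at 30 µg/d and 43.2, 60.9, 158.1 and 70.5 at 150 µg/d. With the 2 uninfused groups fitted alone the adjusted p was 0.0119. Naif1 overlaps the gene on the opposite strand, at a mean of 0.492 RPKM.

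Promoters of the members that changed, and of Slc25a25, were read because glucagon signals through cyclic AMP and the cyclic AMP response element is TGACGTCA, with the core TGACG. RefSeq (GRCm38.p6) gave windows of 300 bases, from 250 before to 50 after the start site, for 33 of the 44 members (42 windows); Slc25a51 had none. They are shown 5′ to 3′ on the gene's strand, with the element or its core in capitals.
Slc25a48, chr13:56438105-56438404 (+): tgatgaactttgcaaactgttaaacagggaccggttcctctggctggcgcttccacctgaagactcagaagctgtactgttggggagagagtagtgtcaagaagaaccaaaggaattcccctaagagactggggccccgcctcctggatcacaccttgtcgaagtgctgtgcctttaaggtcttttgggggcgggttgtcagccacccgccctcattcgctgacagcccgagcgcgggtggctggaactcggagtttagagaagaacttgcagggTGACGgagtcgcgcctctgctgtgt
Slc25a47, chr12:108850879-108851178 (+): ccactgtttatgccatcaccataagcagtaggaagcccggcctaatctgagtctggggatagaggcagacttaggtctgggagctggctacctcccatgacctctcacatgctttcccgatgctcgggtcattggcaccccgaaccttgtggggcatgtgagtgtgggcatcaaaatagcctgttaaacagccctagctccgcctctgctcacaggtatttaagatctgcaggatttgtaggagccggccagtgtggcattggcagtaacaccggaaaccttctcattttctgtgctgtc
Slc25a25, chr2:32424017-32424316 (−): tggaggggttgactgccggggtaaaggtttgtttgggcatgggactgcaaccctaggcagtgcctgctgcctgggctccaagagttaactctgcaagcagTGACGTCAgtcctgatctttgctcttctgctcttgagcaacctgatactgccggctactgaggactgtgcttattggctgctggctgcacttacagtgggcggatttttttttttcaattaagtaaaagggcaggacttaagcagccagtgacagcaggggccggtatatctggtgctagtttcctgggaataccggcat
The Slc25a25 window holds the whole element, 150 bases before the start site, and the other 2 RefSeq starts of that gene do not. The Slc25a48 window holds the core alone, 26 bases after the start. Neither form is in the Slc25a47 window. Each window shown lies inside the coordinates given for its gene. The outermost Slc25a25 start has its window at 32451421 to 32451720, with neither the element nor its core. On either strand TGACGTCA was in 2 of the 42 member windows, those of Slc25a25 and Slc25a36, and in 1.79% of 32851 windows of all genes. The core TGACG, which the full element contains, was in 12 of 42 member windows and 20.8% of all. The median share of G and C was 59.0% in member windows and 52.7% in all. Its part in these matches was not tested. A match of letters is a description and no evidence of binding.

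Slc25a34, Slc25a37, Slc25a39 and Slc25a28 came next by adjusted p, all in Gcg KO at 150 µg/d against none, and did not pass. Slc25a39 had 168.9, 153.0 and 140.9 RPKM in uninfused Gcg KO and 175.8, 213.9, 188.5 and 209.2 at 150 µg/d, without overlap (0.35 ± 0.09, limma adjusted p = 0.0531). Slc25a34, whose substrate is not settled, had 0.763, 1.08 and 0.925 RPKM against 1.25, 1.70, 3.43 and 3.15 (0.76 ± 0.21, adjusted p = 0.0624). Slc25a28, mitoferrin 2, which imports iron, had 6.94, 8.68 and 7.69 RPKM against 9.09, 10.5, 10.2 and 9.59 (0.31 ± 0.09, adjusted p = 0.0739). All 3 were higher in each of the 4 infused libraries. Slc25a37, mitoferrin 1, known from red cell precursors, was lower in each, at 10.2, 11.2, 7.94 and 6.74 RPKM against 13.5, 14.4 and 12.02 (−0.53 ± 0.15, adjusted p = 0.0666). Beside it, 9 erythroid markers summed to 1033 to 4082 RPKM in uninfused Gcg KO and 519.6 to 1530 at 150 µg/d, with none called; their part in the difference was not tested. Noncoding genes lie on the strand opposite Slc25a37, and Gm20236 overlaps it on the same strand. Whether counting used strand is not stated, and strand alone would not separate Gm20236 from it. Without library 19 all 4 passed, at adjusted p of 0.0131 for Slc25a34, 0.0225 for Slc25a39, 0.0398 for Slc25a37 and 0.0450 for Slc25a28, and Slc25a37 also passed without library 20 (0.0414).

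No member passed in the other comparisons with a control group. At 30 µg/d in Gcg KO 0.0863% of all genes were called, and the libraries of 5 members did not overlap, where 8.76% of genes did likewise. In WT 0.293% of genes were called at 150 µg/d and 0 at 30 µg/d, and the libraries did not overlap for 4 and 3 members, against 14.5% and 7.49% of genes. At an unadjusted p under 0.05 limma gave 7 members at 30 µg/d in Gcg KO (19.4%, against 10.1% of all genes), 5 at 150 µg/d in WT (13.9% against 12.1%) and 2 at 30 µg/d in WT (5.56% against 5.67%), so both WT shares were near those of all genes. The lowest adjusted p in WT was that of Slc25a12 at 150 µg/d (0.43 ± 0.11, adjusted p = 0.112), and 33 of 36 members had a 95% interval within ±1 at that dose. No member was called in the 6 further contrasts either, although 1 was without library 9, 13 or 16 and 2 were without library 19. All genes gave 0.00863% for 150 against 30 µg/d in WT, 0.544% for the same in Gcg KO, 0.328% and 0.0259% between genotypes at 30 and 150 µg/d, and 0.00863% and 0 for the interactions at 30 and 150 µg/d. At an unadjusted p under 0.05 in limma, the change from 30 to 150 µg/d had 3 members in WT (8.33%, against 8.12% of all genes) and 7 in Gcg KO (19.4% against 12.9%). Between genotypes there were 5 at 30 µg/d (13.9% against 11.9%) and 1 at 150 µg/d (2.78% against 1.99%). The interactions had 7 at 30 µg/d (19.4% against 9.02%) and 6 at 150 µg/d (16.7% against 10.2%).

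Carriers of adenine nucleotides move ATP, ADP and ATP-Mg. Slc25a5, the ADP/ATP translocase typical of liver, kept a narrow range of 219.7 to 316.3 RPKM over all 22 libraries. Its group means ran from 245.5 to 278.5 RPKM, and between uninfused genotypes the 95% interval of its log2 fold change was −0.16 to 0.34. Slc25a23 was the steadiest member, at 77.1 to 103.1 RPKM, with an interval of −0.37 to −0.04 in the same comparison; Crb3, on the opposite strand, overlaps it at a mean of 5.37 RPKM. Slc25a17, which serves peroxisomes, had group means of 24.3 to 30.6 RPKM and Slc25a24 of 0.403 to 0.724. None of the 6 tested members of the group was called in any contrast.

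Slc25a4, the translocase of heart and skeletal muscle, was looked at further after its values were seen. The other 3 Gcg KO libraries at 150 µg/d had 4.87, 4.29 and 3.71 RPKM, and library 21 had 12.9, the highest of all 22. In library 21 the 7 skeletal muscle markers summed to 117.8 RPKM, with Acta1, skeletal actin, at 35.3 and Ckm, muscle creatine kinase, at 14.8. No other library exceeded a sum of 3.57 RPKM. With library 21 the fold change against uninfused Gcg KO was 0.34 ± 0.26, and without it −0.01 ± 0.17 (limma adjusted p = 0.511 and 0.991).

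**Figure D4:**
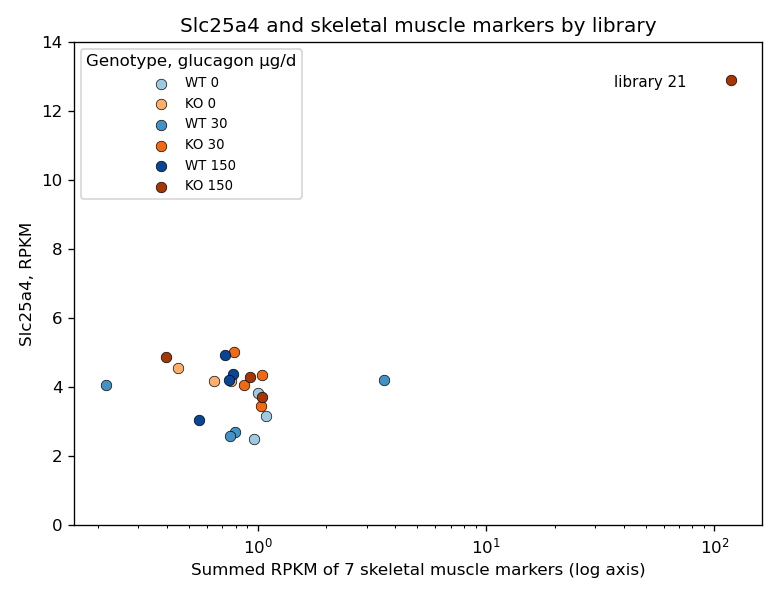
Slc25a4 in RPKM against the summed RPKM of 7 skeletal muscle markers (log axis), with 1 point per library coloured by genotype and glucagon dose in µg/d. Library 21 lies alone at 117.8 and 12.9 RPKM, and the other 21 libraries have 2.48 to 5.02 RPKM of Slc25a4.

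Phosphate enters the matrix through Slc25a3 for ATP synthesis. It had 136.8, 134.2 and 134.0 RPKM in uninfused WT and 135.4, 106.3 and 131.4 in uninfused Gcg KO, with infused libraries from 119.0 to 165.4. Its largest fold change against a control group was 0.22 ± 0.11 at 150 µg/d in Gcg KO (limma adjusted p = 0.294). Slc25a30, an uncoupling-like carrier, was the least steady member, with 20.3, 4.25 and 5.35 RPKM in uninfused WT and up to 31.8 in library 9. Its group means, 6.36 to 14.1 RPKM, did not differ beyond that spread. Slc25a14 averaged 1.14 RPKM.

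Carboxylate carriers link the citric acid cycle with the cytosol. Slc25a1 had group means of 88.7 to 105.9 RPKM, Slc25a10, the dicarboxylate carrier, 54.1 to 79.4, Slc25a11, the oxoglutarate/malate carrier, 28.6 to 31.5, and Slc25a21, the oxodicarboxylate carrier, 4.30 to 5.35. No contrast called any of the 4. Slc25a11 stayed within 23.7 to 37.7 RPKM over all libraries. Slc25a10 had within-group spread enough to cover its differences: uninfused WT had 82.0, 70.2 and 85.9 RPKM and WT at 30 µg/d 91.6, 39.5, 32.2 and 71.9.

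Amino acid carriers were led by Slc25a22, a glutamate carrier. It had 54.3, 54.7 and 55.8 RPKM in uninfused WT and 49.6, 25.2 and 38.9 in uninfused Gcg KO. Gcg KO had 25.8, 28.6, 35.9 and 30.6 RPKM at 30 µg/d and 29.8, 84.7, 88.8 and 70.9 at 150 µg/d, so 3 of 4 high-dose libraries lay above all at the lower dose and library 19 among them. The difference between the doses was 1.05 ± 0.28 (limma adjusted p = 0.0954). Slc25a38, a glycine carrier used in haem synthesis, had 5.07, 6.23 and 6.27 RPKM in uninfused Gcg KO and 7.24 to 9.50 at 30 µg/d (0.49 ± 0.12, adjusted p = 0.124). Slc25a12, an aspartate/glutamate carrier of the malate-aspartate shuttle, had group means of 5.11 to 7.34 RPKM. Those of Slc25a44, a carrier of branched-chain amino acids, were 14.97 to 19.6. Slc25a29, for basic amino acids, averaged 0.820 RPKM although its neighbour on chromosome 12, Slc25a47, at a gap of 14 kb, was the highest of the family. None of the 5 tested amino acid carriers was called in any contrast.

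Besides Slc25a51, the cofactor and nucleotide carriers were without a call. Slc25a42, for coenzyme A, had group means of 22.8 to 27.4 RPKM and Slc25a16, also tied to coenzyme A, 17.6 to 20.8. Slc25a33, a pyrimidine nucleotide carrier, had 6.36 to 8.91, Slc25a32, tied to folate and FAD, 4.34 to 5.96, Slc25a26, for S-adenosylmethionine, 1.95 to 2.70, and Slc25a36 0.630 to 0.857 RPKM.

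Slc25a40, the second glutathione carrier, averaged 1.32 RPKM, far under Slc25a39. Slc25a45 averaged 10.3 RPKM, Slc25a46, a protein of the outer membrane that shapes mitochondria, 8.46, and Slc25a35 0.538, and none of the 4 was called. Near the minimum of 0.5 RPKM, Slc25a35 (0.538) was just inside and Slc25a27 (0.365) just outside. The others under it were Slc25a53 (0.150), Slc25a2 (0.0905), Slc25a43 (0.0713), Slc25a31 (0.0301), the testis translocase, and Slc25a18 (0.00271), while Slc25a41 and Slc25a54 were listed at 0 in all 22 libraries. Of these, 2 sit next to high members: Slc25a41 lies 2.1 kb from Slc25a23, and Slc25a43 lies 18.3 kb from Slc25a5.

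Replicate libraries differed more for some members than for others. The SD within groups of log2(RPKM + 1) had a median of 0.197 over the 36 members and 0.164 over all genes tested. Slc25a30 (0.981) and Slc25a25 (0.890) had the highest, at the 99.1 and 98.9 percentiles of all genes, and Slc25a23 (0.078) the lowest, at 1.6. Slc25a48 stood at 0.182, near the median of members, and Slc25a47 at 0.303.

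**Figure D5:**
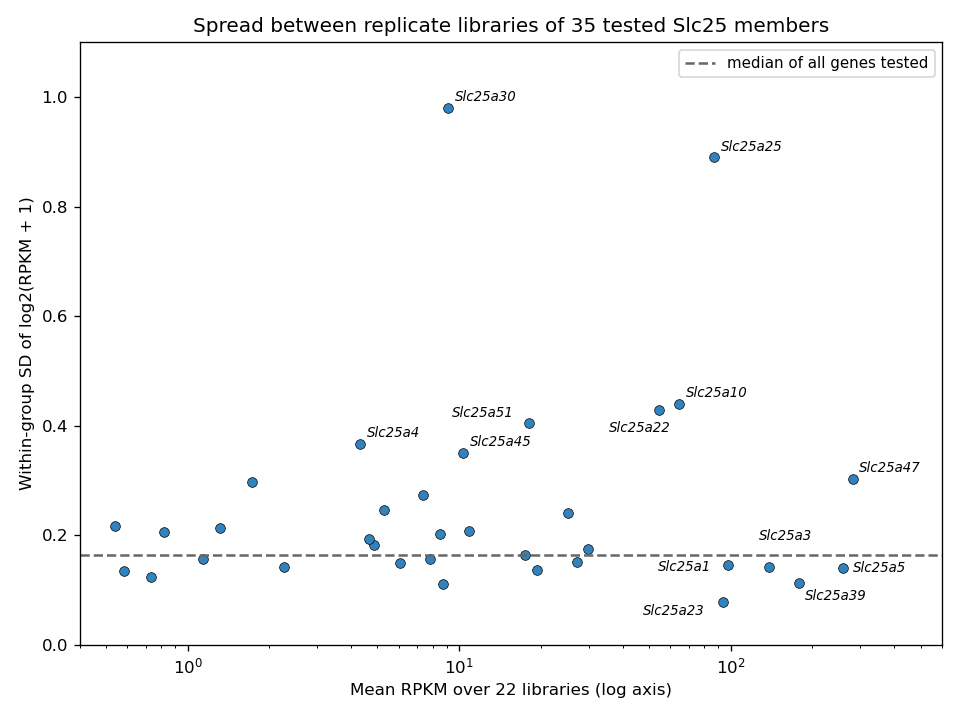
SD within groups of log2(RPKM + 1) against the mean RPKM over 22 libraries (log axis) for 35 tested members (points); the dashed line is the median of all genes tested, 0.164. Slc25a30 and Slc25a25 lie far above the others, and Slc25a1, Slc25a3, Slc25a5, Slc25a23 and Slc25a39 lie below the line.

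Genes that work with the carriers were counted beside them. Of 3 tested relatives with other symbols, Ucp2, an uncoupling protein, was higher in uninfused Gcg KO, at 30.7 ± 3.82 RPKM against 13.1 ± 1.63 (n = 3 each, log2 fold change 1.17, limma adjusted p = 0.0452). Ucp2 is also known from Kupffer cells, whose 11 markers summed to 316.8 to 326.4 RPKM there and 202.7 to 274.9 in WT with none called; their part in the difference was not tested. Of 20 shuttle and cycle enzymes none was called in WT at either dose. In Gcg KO 1 was lower without infusion than in uninfused WT, and 3 were higher at 150 µg/d than without infusion. The first was Gls2, the liver glutaminase, which makes the glutamate that Slc25a22 can carry. The 3 were Gls2 (175 ± 70.1 RPKM, n = 4, against 31.8 ± 11.9, n = 3, limma adjusted p = 0.00466), Pck1 (1587 ± 385 against 519.9 ± 158, 0.0161), the cytosolic gluconeogenic enzyme, and Got1 (178.7 ± 108 against 14.6 ± 6.02, 0.0308), the cytosolic aspartate transaminase of the malate-aspartate shuttle. Of 17 other mitochondrial transporters Mcu, the calcium uniporter pore, was lower in WT at 150 µg/d (4.49 ± 0.742 RPKM, n = 4, against 7.14 ± 0.401, n = 3, adjusted p = 0.0456). None of 20 genes of mitochondrial biogenesis and import and none of 9 ATP synthase subunits was called in the 5 comparisons with a control group, and the medians of their log2 fold changes lay between −0.10 and 0.13. Among the 3 carriers left out, Slc25a15, the ornithine carrier, had 46.1 ± 4.71 RPKM in uninfused Gcg KO (n = 3) and 116.4 ± 50.4 at 150 µg/d (n = 4), which did not pass (1.17, adjusted p = 0.0617).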

How the data were processed

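Liver polyA RNA was made into strand-specific libraries, per the labels' protocols. The authors deposited RPKM values per gene, with no replicates pooled; CASAVA 1.8.2, FastQC and the build GRCm38 appear in the submitters' processing notes, which leave the aligner, counter and annotation not given in the sources used here. Groups came from the titles. Genes with a mean of at least 0.5 RPKM (11590) were fitted in limma 3.58.1 (R 4.3.3) as log2(RPKM + 1), with a mean-variance trend and the 6 groups in 1 fit without covariates (16 residual degrees of freedom). There were 11 contrasts: 5 with a control group and 6 others. Benjamini-Hochberg adjustment ran over all genes tested, and an adjusted p under 0.05 counted as a call. SE values are limma's, and SD values are over libraries. The fit was tested on simulated data.

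Depth was estimated from 6884 genes with 1 annotated transcript. Their low values were whole reads, to 0.1 of a read, in 60.4 to 64.7% of cases, too few for a count test. A total fixed beforehand would give 20% by chance, whereas the totals here were chosen for a high share.

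The members and lists were chosen with earlier results of these data known. The values of 1 tested member are not reported here, and it is counted but left out of the figures. Library values are given for members that were called, whose groups did not overlap at an absolute log2 difference of 1 or more, that were among the 6 highest, or that had the smallest adjusted p until 8 were reached; other members named with library values (Slc25a4, Slc25a10, Slc25a22, Slc25a30, Slc25a38) were chosen after their values were seen, as were Cyp2b9, Acta1 and Ckm. Of each related list, called genes are named, up to 4. Gene coordinates are from RefSeq on GRCm38. Alternatives were other pseudocounts, filters and scalings, array weights, the groups of a comparison alone, and libraries left out.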

Additional observations from a re-analysis of the deposited data

Results flagged for a closer look

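Among 48 groups of 4 libraries examined for a library far from the rest, 2 had one, where chance gives about 1 in 20. Slc25a5 had 316.3 RPKM in library 13 (Gcg KO, 30 µg/d), and the next of that group had 269.1. Library 13 is one of the pair with high Cyp2b9. Slc25a1 had 104.4 RPKM in library 10 (WT, 30 µg/d), and the next had 84.5.

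At 30 µg/d 2 of the 36 tested members (5.56%) had all libraries of the infused group on one side of the uninfused group in WT and on the other side in Gcg KO, where 0.466% of all genes did. Both were below it in WT and above it in Gcg KO, and neither passed the test in either genotype. For Slc25a48 the difference between the responses was 0.89 ± 0.19 (limma adjusted p = 0.173), and for Slc25a23 it was 0.33 ± 0.10 (0.386). Neither interaction passed the test.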

How the results depend on the processing

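Slc25a48 kept its call in every alternative run between uninfused genotypes (adjusted p 0.000158 to 0.0140) and in 16 of 17 at 150 µg/d in Gcg KO. Counts of called members moved more. Between uninfused genotypes 1 member was called, 2 with only those groups fitted and 5 with array weights, and 1 to 2 with 1 library left out. At 150 µg/d in Gcg KO 3 were called, 5 with median-of-ratios scaling, 6 with quantile normalization, 9 with array weights, 0 with the groups alone and 1 without libraries 4 and 13, and 1 to 8 with 1 library left out. With 1 library left out the counts were 0 to 1 at 30 µg/d in Gcg KO and 0 to 2 over the 6 further contrasts. These had 4 with array weights and 2 without libraries 4 and 13, and array weights gave 2 at 150 µg/d in WT. No alternative called a member at 30 µg/d in WT. All genes called ranged from 9 to 294 between uninfused genotypes and from 61 to 586 at 150 µg/d in Gcg KO with 1 library left out (179 and 315 with all), and over the other alternatives from 22 to 945 and from 1 to 770.

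Of the single fold changes 29 turned sign or rounded to 0, all of them near 0 or wide and none called. With another scaling Slc25a23 at 150 µg/d in WT was 0.01 (quantile) and 0 (one sum), and Slc25a25 at 30 µg/d in Gcg KO was 0 and −0.02. With array weights Slc25a51 was −0.03 and Slc25a25 0.03 at 30 µg/d in WT, and Slc25a23 was −0.03 at 150 µg/d in Gcg KO. Without libraries 4 and 13 Slc25a5 was −0.02 between uninfused genotypes and 0.02 at 150 µg/d in Gcg KO, Slc25a28 was −0.01 at 30 µg/d in Gcg KO and Slc25a23 −0.04 at 150 µg/d. With 1 library left out Slc25a25 ranged from −0.40 to 0.41 at 30 µg/d in Gcg KO and from −0.39 to 0.07 in WT, Slc25a51 from −0.11 to 0.16 at 30 µg/d in WT, Slc25a28, Slc25a39, Slc25a5 and Slc25a37 from −0.06 to 0.04, −0.02 to 0.10, 0 to 0.14 and −0.21 to 0.01 at 150 µg/d in WT, Slc25a5 from −0.02 to 0.16 between uninfused genotypes and from −0.16 to 0.02 at 150 µg/d in Gcg KO, and Slc25a23 from −0.04 to 0.09 there. Except where stated, the cause was not tested. No paired analysis was possible because the running numbers of the libraries are unique.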
